A study of Mus musculus with 3 samples.

Results

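The secreted Wnt antagonists *Frzb* and *Wif1* and an R-spondin receptor, *Lgr5*, were lower after *Tet1* knockdown (KD) under both hairpins. The R-spondin *Rspo3* was higher under both hairpins, but did not pass the limma test (adjusted p = 0.081). These 4 genes were chosen by name from the deposited table that pairs probe sets with genes. Each was named there on 1 probe set, so 4 probe sets were followed of 35512 on the array and of 1196 genes named in that table. Any other probe set of these genes on the array was not named and could not be followed. The table holds only probe sets that had been selected on this same comparison, by the lower bound of the fold and the difference in intensity, so its genes had to differ between NT and KD. The values of the 4 genes are therefore a description of these arrays, and the p-values below locate them in the fit across the array without being independent evidence.

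The cells were ATDC5, a wild-type mouse chondroprogenitor line derived from a teratoma, kept for 15 days in insulin, transferrin and selenium, which leads them to form cartilage-like matrix. All cultures had been transduced with a lentiviral short hairpin RNA (shRNA) and, per the methods, selected with puromycin before differentiation began. The shRNA was a nontarget hairpin (NT, 1 array), Tet1sh1 (hairpin 1, 1 array) or Tet1sh2 (hairpin 2, 1 array). Both *Tet1* hairpins were compared with the same NT array, and no hairpin had a repeat culture. The p-values rest on the spread between the 2 KD arrays, where hairpin, culture and array cannot be told apart. In the limma fit the spread of each probe set was moderated toward that of all probe sets tested. This pooled part carried 13.3 prior degrees of freedom, against 1 residual for the probe set itself. *Tet1*, whose product oxidizes 5-methylcytosine in DNA, read lower than NT on both KD arrays at each of the 3 probe sets named for it. The values were 36.4% to 52.8% of the NT intensity under hairpin 1 and 44.6% to 46.9% under hairpin 2. Only probe sets selected on this comparison were named, so a difference at each of the 3 was set by that selection. Any other *Tet1* probe set could not be seen. None of the 3 passed the limma test (adjusted p = 0.133, 0.164 and 0.186).

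Wnt proteins are secreted signals that bind Frizzled receptors together with the coreceptors LRP5 or LRP6, which stabilizes beta-catenin and activates genes through TCF/LEF factors. Secreted antagonists such as FRZB, also called sFRP3, and WIF1 bind Wnt proteins outside the cell and keep them from their receptors. The E3 ubiquitin ligases RNF43 and ZNRF3 remove Frizzled receptors from the cell surface, and R-spondins, held by LGR4, LGR5 or LGR6, block these ligases, so that more receptor stays at the surface. In the skeleton, Wnt signaling favors bone formation and chondrocyte maturation, FRZB is known from articular cartilage, and LGR5 marks stem cells of the intestine.

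The promoters of *Frzb* and *Wif1*, which both fell, are shown because hydroxymethylated cytosine at CCGG sites and SOX9 binding were among the subjects of the study, and TCF/LEF factors carry the Wnt signal. RefSeq promoter sequences (GRCm38.p6, 250 bases before to 50 bases after the start) matched 2 of the 4 genes, *Frzb* and *Wif1*, and not *Lgr5* or *Rspo3*. Capitals mark CCGG and TCAAAG, searched here as a TCF/LEF core, on either strand. Of the SOX cores only ACAAAG and ACAATG were searched, also on both strands, and neither had a match in these windows. Other forms of the SOX core were not searched, so the windows are not said to lack SOX sites.
*Frzb*, chr2:80447347-80447646, minus strand: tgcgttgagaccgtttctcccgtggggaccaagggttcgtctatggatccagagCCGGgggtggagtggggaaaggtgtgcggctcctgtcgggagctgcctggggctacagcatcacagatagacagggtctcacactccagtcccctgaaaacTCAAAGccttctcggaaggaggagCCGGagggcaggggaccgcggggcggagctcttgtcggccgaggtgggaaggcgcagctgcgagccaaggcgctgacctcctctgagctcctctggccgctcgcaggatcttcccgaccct
*Wif1*, chr10:121033754-121034053, plus strand: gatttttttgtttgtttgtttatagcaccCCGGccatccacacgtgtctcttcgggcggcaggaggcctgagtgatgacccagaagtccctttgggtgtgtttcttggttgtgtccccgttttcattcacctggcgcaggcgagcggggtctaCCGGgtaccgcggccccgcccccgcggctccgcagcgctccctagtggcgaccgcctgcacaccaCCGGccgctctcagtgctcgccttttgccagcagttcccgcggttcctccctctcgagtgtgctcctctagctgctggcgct

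The *Frzb* promoter held 20 CG dinucleotides and 2 CCGG sites, and the *Wif1* promoter held 25 and 3. Across all 32851 promoters of the same length the median was 7 CG dinucleotides, with quartiles of 3 and 20, and 52.8% held at least 1 CCGG. The single TCAAAG of *Frzb* lay 95 bases before the start, and 16.0% of all promoters held one. The *Wif1* window held no TCAAAG. Of all promoters, 18.7% held ACAAAG and 12.6% held ACAATG, so most windows of this length lack either of these searched cores. Each CCGG holds a CG, so its CG is also in the CG count. Apart from this, none of the motifs searched overlaps another in the *Frzb* or *Wif1* window. These matches are a description of the sequence, and no methylation or binding was measured on the arrays described here.

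*Frzb* had the widest change of the 4 genes on the log2 scale. The NT array read 935 units, against 116 units for hairpin 1 and 98.4 units for hairpin 2. The standard error that the authors' software gave for the NT value, from the probes of that array alone, was 11.1 units, or 1.19% of it. Both KD values lay far below NT and close to each other, at 12.4% and 10.5% of it. They were dim, near the mean of 100 units that the filter required, which limits the precision of the fold. With 32 units added to each value, the log2 fold of *Frzb* was -2.80. The KD mean was 107 ± 12.3 units (SD, n = 2), and *Frzb* fell by 3.13 ± 0.40 (SE) on the log2 scale, with a 95% interval from -3.98 to -2.29 (limma adjusted p = 0.000439). Among the 27311 probe sets tested, only 2 had a lower fold, since *Frzb* ranked 3 from the lowest.

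*Lgr5*, an R-spondin receptor, stood at 3173 units in NT and at 670 and 502 units with hairpins 1 and 2. Its NT standard error across probes was 23.6 units. Hairpin 1 left 21.1% and hairpin 2 left 15.8% of the NT intensity, so that again neither KD array came near NT. The KD mean was 586 ± 119 units (SD, n = 2), and *Lgr5* fell by 2.45 ± 0.32 (SE) on the log2 scale, with a 95% interval from -3.14 to -1.76 (limma adjusted p = 0.000624). It ranked 15 from the lowest fold. The drop of 2587 units between the NT value and the KD mean was the widest of the 4 genes in intensity units.

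*Wif1* dropped from 3098 units in NT to 1057 units with hairpin 1 and 925 units with hairpin 2, and its NT standard error across probes was 15.8 units. The KD arrays kept 34.1% and 29.9% of the NT intensity, a larger share than for *Frzb* or *Lgr5*. *Wif1* fell by 1.65 ± 0.29 (SE) on the log2 scale, with a 95% interval from -2.27 to -1.02 (limma adjusted p = 0.00754), to a KD mean of 991 ± 93.3 units (SD, n = 2). It ranked 80 from the lowest fold. The call of *Wif1* was lost when each array was centred on its median (limma adjusted p = 0.0569) and when the moderation used no intensity trend (0.13), within a range from 0.00567 to 0.758 over all settings tried.

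*Rspo3*, a secreted ligand of LGR receptors, went the other way. The NT array gave 118 units, hairpin 1 gave 335 units and hairpin 2 gave 322 units, which is 284% and 273% of NT. The 2 KD arrays were both above NT and nearly equal, with a mean of 329 ± 9.35 units (SD, n = 2). *Rspo3* was dim in NT, where 23.4% of the probe sets were under 100 units, and its NT standard error of 14.7 units was 12.5% of its intensity, against 0.51% to 1.19% for the other 3 genes. The log2 fold was 1.48 ± 0.39 (SE), with a 95% interval from 0.65 to 2.31, above the threshold in limma (adjusted p = 0.081). Under the alternatives the adjusted p ranged from 0.0564 to 0.758, and the value was higher after KD in all of them.

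**Figure D1:**
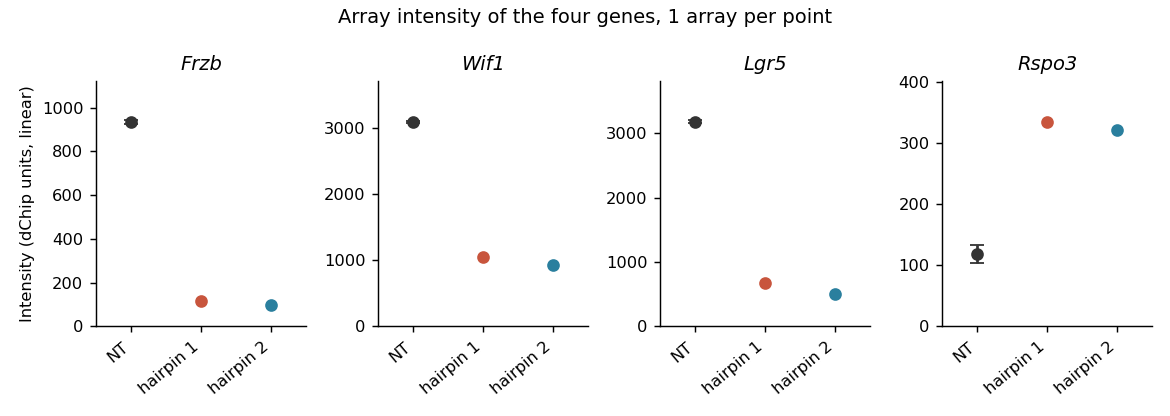
Intensity (linear dChip units) of *Frzb*, *Wif1*, *Lgr5* and *Rspo3*, with 1 point per array (NT, hairpin 1, hairpin 2) and each axis starting at 0; the bar on NT is the authors' standard error across the probes of that array, and no KD error of that kind was used. Both KD arrays lie below NT for *Frzb* (116 and 98.4 against 935), *Wif1* and *Lgr5*, and above NT for *Rspo3* (335 and 322 against 118).

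Of the 4 genes, 3 passed the limma test as lower and 0 as higher. Across all 27311 probe sets tested, 0.388% were called lower and 1.36% higher, and among the named and selected probe sets 7.08% were lower and 26.8% higher. Both KD arrays lay below NT for 3 of the genes, as for 48.3% of all probe sets tested, and above NT for 1, as for 26.8%. All 4 passed the size criteria, which are the fold and the intensity difference of the methods without their further lower confidence bound. NT and the KD mean had to be at least 2.5-fold and more than 100 units apart, and 3 genes passed as lower and 1 as higher. Of all probe sets on the array, 0.459% passed these criteria as lower and 1.28% as higher. The genes were listed because of this contrast, so nothing is read from these counts.

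For each gene the KD arrays lay closer to each other than to NT. The 2 KD arrays differed by 0.24 on the log2 scale for *Frzb*, 0.42 for *Lgr5*, 0.19 for *Wif1* and 0.06 for *Rspo3*. Over all probe sets tested the median distance between the hairpins was 0.26 and the 95th percentile 0.96. *Lgr5* lay at percentile 69.6 of these distances, *Frzb* at 45.3, *Wif1* at 38.2 and *Rspo3* at 11.9. For all 4 genes the value was lower under hairpin 2 than under hairpin 1, and the median of the whole hairpin 2 array was also lower, by 0.08 on the log2 scale. Each of the genes that fell kept its own range of log2 folds, apart from those of the others: *Frzb* had -3.01 and -3.25, *Lgr5* -2.24 and -2.66, and *Wif1* -1.55 and -1.74. With 1 array per hairpin, neither the distance between hairpins nor the order of the genes was tested. The 4 genes had been selected by the lower bound of the fold, and whether this favored small distances was not tested.

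**Figure D2:**
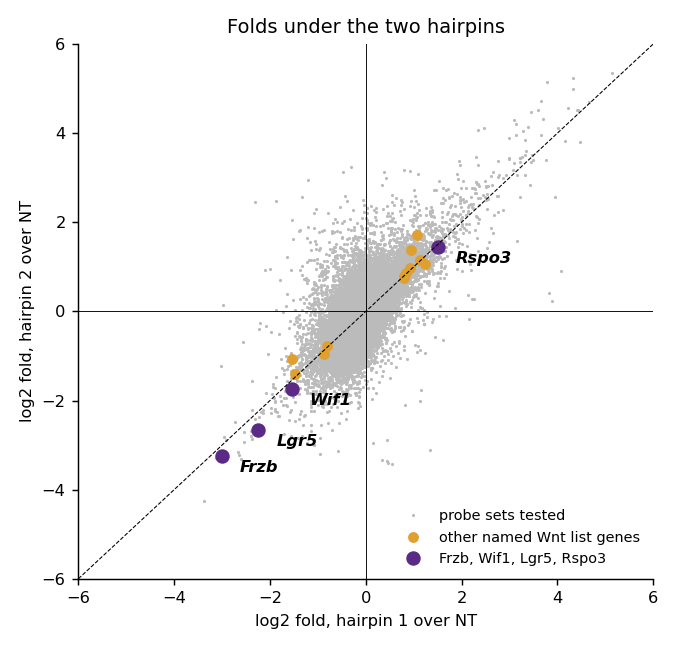
Log2 fold over NT under hairpin 1 (horizontal axis) and hairpin 2 (vertical axis) for the 27311 probe sets tested (grey), the 4 genes (purple) and the other named genes of the Wnt list (yellow); the dashed line marks equal folds, and both axes share the NT array. *Frzb* (-3.01 and -3.25) lies at the lower edge of all probe sets, *Lgr5* and *Wif1* follow along the line, and *Rspo3* (1.50 and 1.45) lies on the opposite side.

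Other genes of the pathway were followed from a list of 102 genes grouped by role, of which 16 were named in the authors' table, these 4 genes included, and 86 were not analysed here. In the limma test 1 of the 16 rose and 3 fell, and 12 did not pass, where 26.8% of the named probe sets were called higher and 7.08% lower, against 1.36% and 0.388% of all probe sets tested. Their median log2 fold was 0.78, with 9 higher and 7 lower, beside a median of -0.12 over all probe sets tested and 0.87 over the named probe sets. No named gene was a Wnt ligand (0 of 19) or a ligand secretion factor (0 of 2).

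Among secreted antagonists 4 of 15 were named, and they did not share a direction. *Frzb* and *Wif1* fell. *Sfrp2*, a secreted frizzled-related protein, went from 1646 units in NT to 901 and 851 units with hairpins 1 and 2; the log2 fold, -0.91 ± 0.31 (SE), missed the limma threshold (adjusted p = 0.206). Its relative *Sfrp1* had the opposite sign, with 280.0 units in NT against 584 units for hairpin 1 and 915 units for hairpin 2, and its log2 fold of 1.38 ± 0.37 (SE) missed the threshold too (limma adjusted p = 0.0924). The hairpins were farther apart for *Sfrp1* than for any of the other 15 genes of the list, by 0.65 on the log2 scale.

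In the R-spondin axis 3 of 9 genes were named. Beside *Rspo3* and *Lgr5*, this was *Rnf43*, a ligase that R-spondins block and itself a target of Wnt signaling. *Rnf43* gave 572 units in NT, 207 units with hairpin 1 and 217 units with hairpin 2. The KD arrays were at 36.2% and 37.9% of NT, and the log2 fold was -1.43 ± 0.37 (SE), which did not pass (limma adjusted p = 0.0781). Thus, of the 3 named genes, *Lgr5* and *Rnf43* were lower on both KD arrays and *Rspo3* was higher, with *Lgr5* alone past the test. The other 6 genes of the axis, which were not named, were not analysed here.

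Of 19 receptors and coreceptors 4 were named, and none passed limma. The Frizzled receptors *Fzd6* and *Fzd9* were lower on both KD arrays, *Fzd6* with 1582 units in NT and 542 and 752 units with hairpins 1 and 2, and *Fzd9* with 632, 357 and 368 units in that order. The coreceptor *Lrp5* was higher on both, at 1115 units in NT and at 2116 and 2183 units with hairpins 1 and 2. *Lrp4*, a receptor of the same family that binds the Wnt inhibitor sclerostin, measured 963, 2119.6 and 2158 units. The log2 folds were -1.31 for *Fzd6*, -0.80 for *Fzd9*, 0.95 for *Lrp5* and 1.15 for *Lrp4*, with limma adjusted p-values of 0.0724, 0.411, 0.127 and 0.056. *Lrp4* passed with robust moderation, a setting added after seeing the data (limma adjusted p = 0.0426), within a range up to 0.758 over the alternatives.

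Among 31 intracellular components the formins *Daam1* and *Daam2*, which link Wnt receptors to the cytoskeleton, were named, with log2 folds of 0.80 and 1.15 and limma adjusted p-values of 0.246 and 0.174. Among 16 genes known as targets of Wnt signaling 5 were named, *Lgr5* and *Rnf43* again, *Cd44*, *Myc* and *Ccn4* (listed as Wisp1). *Cd44*, a hyaluronan receptor, rose by 0.85 ± 0.20 (SE) on the log2 scale, from 3831 units in NT to 6869 and 6974 units with hairpins 1 and 2 (limma adjusted p = 0.0453). This call was lost after quantile normalization (0.0831) and without the intensity trend (0.479), in a range from 0.0318 to 0.758. The growth regulator *Myc* and the matricellular *Ccn4* had log2 folds of 0.77 and 1.16 that did not pass (limma adjusted p = 0.125 and 0.0955). Of the 5 targets, 3 were thus higher and 2 lower on both KD arrays.

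**Figure D3:**
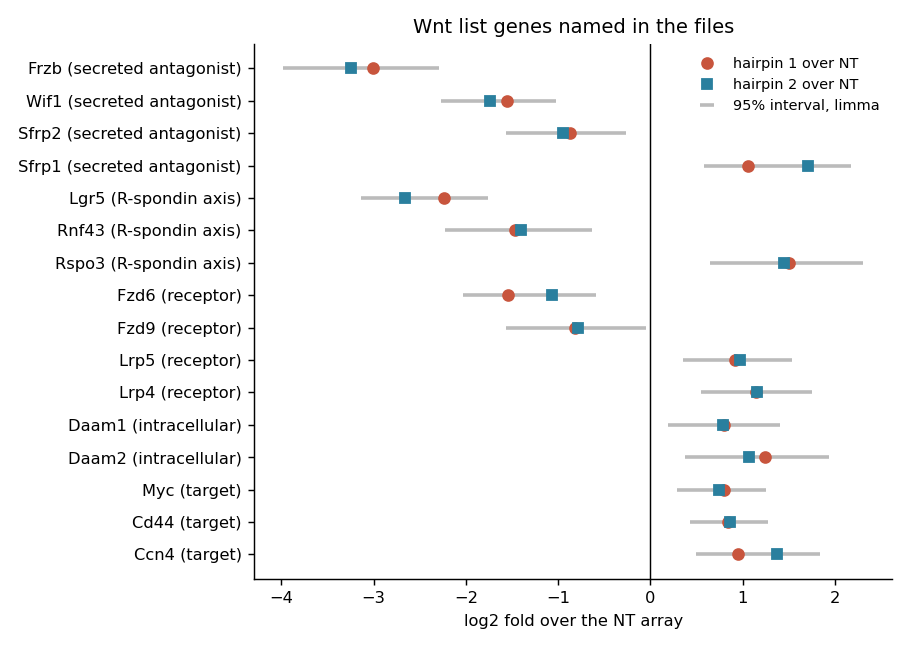
Log2 fold over the NT array for the 16 named genes of the Wnt list, grouped by role, under hairpin 1 (circles) and hairpin 2 (squares), with limma's 95% interval as a grey line; *Lgr5* and *Rnf43*, also targets, are drawn once. *Frzb*, *Wif1*, *Sfrp2*, *Lgr5*, *Rnf43*, *Fzd6* and *Fzd9* lie below 0 under both hairpins, and the other 9 genes lie above 0.

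For each of the 4 genes, the named genes with the nearest pair of folds were found by Euclidean distance over the 3 arrays. Nearest to *Frzb* were *Perp*, a desmosomal protein (distance 0.12), *Acan*, which encodes the proteoglycan aggrecan (0.35), and *Cthrc1*, a secreted collagen-related protein (0.38). *Perp* had log2 folds of -3.12 and -3.29 under hairpins 1 and 2, and *Acan* -2.68 and -3.15. Nearest to *Wif1* were the folate enzyme *Aldh1l1* (0.038), the large proteoglycan *Vcan* (0.11) and *Anxa8* (0.15). Nearest to *Lgr5* were *C1qtnf3* (0.16), the G protein subunit *Gna14* (0.19) and the coactivator *Ppargc1a* (0.24). Nearest to *Rspo3* were *Arhgef17* (0.044), *Gm5431* (listed as EG432555, 0.051) and *Rarres2*, the chemoattractant chemerin (0.053). With 3 arrays and a shared NT array, these distances describe similar folds only.

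Markers of cell types moved on the same arrays, and those named had likewise been selected for differing in this contrast, so nothing is read from their counts (7.08% of the named probe sets were called lower and 26.8% higher, against 0.388% and 1.36% of all tested). Of 23 chondrocyte markers 6 were named, all of them lower after KD and 5 past limma, and their summed intensity was 12184 units in NT against 4494 and 3083 units with hairpins 1 and 2. *Col2a1*, *Hapln1*, *Col11a1* and *Acan* were the brightest of them, with log2 folds of -1.45, -2.24, -1.17 and -2.92. Of 10 fibroblast markers 3 were named and higher, 2 of them past limma, with a sum of 6519 units in NT and 15892 and 12917 units with hairpins 1 and 2. The osteoblast markers *Ibsp* and *Phex* (2 of 8 named) rose, from a sum of 2893 units in NT to 7601 and 6840.2 units. The epithelial markers *Perp* and *Ehf* (2 of 6 named) fell, from a sum of 3756 units to 516 and 425 units, as did the adipocyte marker *Fabp4* (1 of 8 named), from 838 units to 179 and 163 units. Of 8 leukocyte markers *Cd68* fell and *Lyz2* rose, their sum going from 4912 units to 3432 and 2219.6 units, and 0 of 6 endothelial and 0 of 6 muscle markers were named. No named marker was at 0, the lowest value being 65.7 units. The part of these shifts in the values of *Frzb*, *Wif1*, *Lgr5* and *Rspo3* was not tested, and fewer cells of a type cannot be told apart from less RNA per cell in these bulk samples.

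Since the median log2 fold over all probe sets tested was -0.12, folds were also taken with each array centred on its median. *Frzb* then had a log2 fold of -2.97, *Lgr5* -2.29, *Wif1* -1.48 and *Rspo3* 1.64. Each kept its direction under every setting tried, with ranges from -3.25 to -2.80 for *Frzb*, -2.66 to -2.24 for *Lgr5*, -1.74 to -1.48 for *Wif1* and 1.26 to 1.64 for *Rspo3*.

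**Figure D4:**
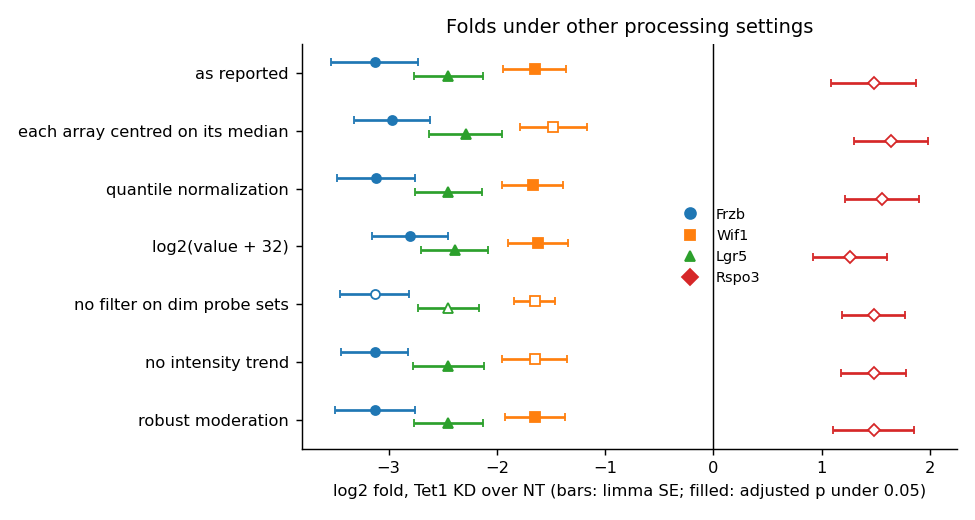
Log2 fold of the 4 genes, KD over NT, as reported and under 6 other settings of scaling, pseudocount, filter and moderation, with limma's SE as bars; filled symbols have an adjusted p under 0.05 and open symbols do not. *Frzb* and *Lgr5* are filled in every setting except the one with no filter on dim probe sets, *Wif1* is open in 3 settings, and *Rspo3* is open in all.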

How the data were processed

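Total RNA was hybridized to Affymetrix Mouse Gene 1.0 ST arrays. The deposited intensity values are linear and had been scaled by the authors in dChip (invariant-set method, model-based expression) (array medians 304.6, 279.6 and 263.9 units for NT, hairpin 1 and hairpin 2). A deposited table of the 1524 probe sets the authors selected named 1330 of them and held the same intensities (largest difference 0 units). Its standard error of the NT value, a score in intensity units made by the authors, was used, and its folds, bounds, KD means and differences were not. The submitters' processing notes name mm9. Symbols were updated through RefSeq (GRCm38.p6), 1084 by accession, 112 by symbol and 75 by older symbol, and 59 were kept.

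Values were floored at 10 units before log2. The fit in limma 3.58.1 (R 4.3.3), with an intensity trend, covered the 27311 probe sets whose mean reached 100 units, all 4 genes among them, KD against NT, two-sided, with Benjamini-Hochberg adjustment over all of them and a threshold of 0.05. There was 1 residual degree of freedom, beside 13.3 prior degrees of freedom drawn from all probe sets tested. The lone NT array is assumed to vary like the KD arrays. In 20 simulated sets of this comparison, 44.2% of 2.5-fold and 84.1% of 4-fold changes were recovered, and a mean of 19.5% of the calls were false (2.94% to 36.2% per set), so adjusted p-values are optimistic. The genes named were the 4, *Tet1*, every named Wnt list gene, up to 4 markers per list by mean intensity and the 3 nearest named genes. Members and lists were chosen with earlier results of these data known. Nearness was taken over each gene's brightest probe set. The number of arrays limits the precision.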

Additional observations from a re-analysis of the deposited data

How the results depend on the processing

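The direction of *Frzb*, *Lgr5*, *Wif1* and *Rspo3* was the same under each alternative, with and without either hairpin. With no filter on dim probe sets none was called (limma adjusted p = 0.758 at log2 folds of -3.13, -2.45 and -1.65 for *Frzb*, *Lgr5* and *Wif1*), and no probe set of the array was (0, with 2229 at an unadjusted limma p under 0.05). *Wif1* was not called with median centring (-1.48) or no intensity trend (-1.65). The limma calls over the array, 478 (372 higher, 106 lower), went to 222 (188 and 34) after quantile normalization and 108 (87 and 21) without the trend, and lower calls went to 37 of 353 with median centring. The size criteria gave 163 lower and 456 higher, against 2111 and 1985 at 1.5-fold, 84 and 272 with both KD arrays required, 92 lower with median centring, and 175 to 492 lower and 353 to 859 higher with 1 KD array. The causes were not tested. Named Wnt genes called higher, 1, went to 0 in 3 settings and to 2 with robust moderation. Leaving out a hairpin leaves no residual degree of freedom, so only values were taken. No paired analysis was possible because NT has 1 array. *Rspo3* was dim in NT, at 118 units.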
